A study of Mus musculus with 9 samples.

Results

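The 32 genes described here encode transcription factors, matrix proteins, mineralizing enzymes and transporters, and osteocyte products of the bone-forming lineage. They were taken by symbol from a list drawn up with earlier results of these data known, and were found among the 22354 gene symbols (24367 rows) of the normalized expression table. All 32 had a row, and where a symbol had several rows the one with the highest mean over the 9 arrays was kept. Total RNA from mouse tibia had been hybridised to Affymetrix Mouse Gene 2.0 ST arrays, with 3 arrays in each of 3 groups. Control mice had neither fracture surgery nor drug. Active and Resting mice had an open tibia fracture and then received carprofen, a non-steroidal anti-inflammatory drug (NSAID), for 3 days, either in the active (dark) phase or in the resting (light) phase. In the fracture groups tissue was taken on day 3 from the central part of the bone with its callus and hematoma. The sample titles name tibia hematoma in all 3 groups, although Control had no fracture. Which part of the Control tibia was taken is not stated.

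According to the labels all animals were female and 2 months old. The methods give C57BL/6j mice, of an older age, for the first experiment of the study and do not restate strain or age for the arrays. No group had a fracture without carprofen, so fracture and drug cannot be told apart in either comparison with Control. The Resting mice were also sampled longer after their last dose than the Active mice, so phase of dosing and time since dosing cannot be told apart either. Every array was a mixture of bone, marrow and muscle, and the fracture arrays also held callus and hematoma, which unfractured Control lacked. In such mixtures fewer cells of a type and less RNA per cell cannot be told apart.

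Bone-forming cells arise from mesenchymal progenitors in periosteum and marrow. Runx2 and then Sp7 (osterix) commit them to the osteoblast fate, after which they lay down collagen and noncollagenous matrix and mineralize it. Mineral forms when phosphatases such as tissue non-specific alkaline phosphatase (Alpl) release phosphate and remove pyrophosphate, an inhibitor of crystal growth. Osteoblasts that become buried in the matrix turn into osteocytes, which make Dmp1, Phex and Mepe. In a healing fracture the periosteum forms new bone directly at the edges of the callus, while its centre passes through cartilage.

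4 of the members, Dmp1, Ibsp, Mepe and Spp1, are neighbours on mouse chromosome 5 in the family of small integrin-binding, N-linked glycoproteins. Between Dspp and Pkd2 the protein-coding genes lie in the order Dmp1, Ibsp, Mepe and Spp1. The 250 bases before the annotated start of each are printed because these neighbours are described one by one below. They are RefSeq sequence of build GRCm38.p6, plus strand, 5′ to 3′. Capitals mark TGTGGT, the core recognised by Runx proteins, and TATAAA, the element of TATA boxes, on either strand. Dmp1 and Spp1 have 2 annotated starts each, of which the first is shown.
Dmp1 (chr5:104197325-104197574): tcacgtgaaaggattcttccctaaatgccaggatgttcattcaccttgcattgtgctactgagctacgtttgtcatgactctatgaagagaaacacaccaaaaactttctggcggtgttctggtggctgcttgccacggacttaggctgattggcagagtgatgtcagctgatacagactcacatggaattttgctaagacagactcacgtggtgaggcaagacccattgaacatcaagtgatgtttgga
Ibsp (chr5:104299037-104299286): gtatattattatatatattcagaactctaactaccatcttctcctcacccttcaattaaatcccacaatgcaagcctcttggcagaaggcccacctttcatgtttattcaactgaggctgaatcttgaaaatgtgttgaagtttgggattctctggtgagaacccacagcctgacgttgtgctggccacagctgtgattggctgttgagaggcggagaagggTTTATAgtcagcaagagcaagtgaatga
Mepe (chr5:104325079-104325328): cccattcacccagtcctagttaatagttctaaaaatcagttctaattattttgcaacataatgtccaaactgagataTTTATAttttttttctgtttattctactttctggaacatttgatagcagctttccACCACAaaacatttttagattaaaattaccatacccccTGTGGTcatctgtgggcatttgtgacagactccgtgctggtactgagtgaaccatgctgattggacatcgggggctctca
Spp1 (chr5:104434861-104435110): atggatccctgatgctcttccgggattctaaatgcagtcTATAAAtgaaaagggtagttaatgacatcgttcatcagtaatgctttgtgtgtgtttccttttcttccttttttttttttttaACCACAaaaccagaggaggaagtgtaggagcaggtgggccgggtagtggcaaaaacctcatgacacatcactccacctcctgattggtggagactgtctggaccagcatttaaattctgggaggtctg
The Dmp1 window shown held neither motif. Ibsp held TATAAA on the reverse strand, 28 to 23 bases before its start, and no TGTGGT. Mepe held TGTGGT on both strands, 118 to 113 and 80 to 75 bases before its start, and TATAAA on the reverse strand at 173 to 168. Spp1 held TGTGGT on the reverse strand 128 to 123 bases before its start and TATAAA on the forward strand at 211 to 206. Of 32851 promoter windows of this length, 14% held TGTGGT and 12.4% held TATAAA. RefSeq windows were at hand for 24 of the 32 members, of which 7 held TGTGGT and 6 held TATAAA in at least 1 window, Dmp1 holding TGTGGT in the window of its other start. These 24 genes had 30 windows, so counts by gene cannot be set directly against the shares by window. These matches describe letters in a window and say nothing about binding.

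Values below are log2 signals as deposited, so a difference of 1 is a doubling, and levels of different genes are not compared because their probes differ. A gene was said to have risen or fallen where limma's moderated test, fitted on all 9 arrays, gave an adjusted p under 0.05 after Benjamini-Hochberg correction over all 24367 rows. The array medians lay between 6.34 and 6.40. Marrow lists were lower after fracture, with 10 of 10 erythroid genes lower in Active and 9 in Resting and 9 of 10 B lymphocyte genes lower in both. Of 10 neutrophil genes 10 fell in Active and 3 in Resting. The 9 fibroblast and repair matrix genes all rose in both. With 3 arrays against 3, an exact two-sided permutation test cannot give a p below 0.1.

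Compared with Control, 9 of the 32 members rose in the Active group, 1 fell and 22 did not pass the test. Over all rows 23.9% passed, 11.8% higher and 12.1% lower. In the Resting group 13 members rose, 1 fell and 18 did not pass, against 19.1% of all rows, 9.08% higher and 10% lower. The counts by role and by list below stand beside these same shares of all rows. The median log2 difference of the members was 0.46 in Active and 0.52 in Resting, beside 0.02 for all rows in both comparisons. All Active arrays lay above all Control arrays for 15 members and below them for 3, against 18.9% and 17.6% of all rows. For Resting the numbers were 16 above and 2 below, against 17.6% and 17.8% of all rows. Both comparisons use the same Control arrays, so neither is a repeat of the other. The Resting count depended on single arrays: without Control replicate 3 it was 8 genes higher in place of 13. Over all rows the same step gave 1520 higher in place of 2213. With the methods' t-test and the same adjustment, 5 members were higher in Active and 3 in Resting, beside 1011 and 891 of all 24367 rows.

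**Figure D1:**
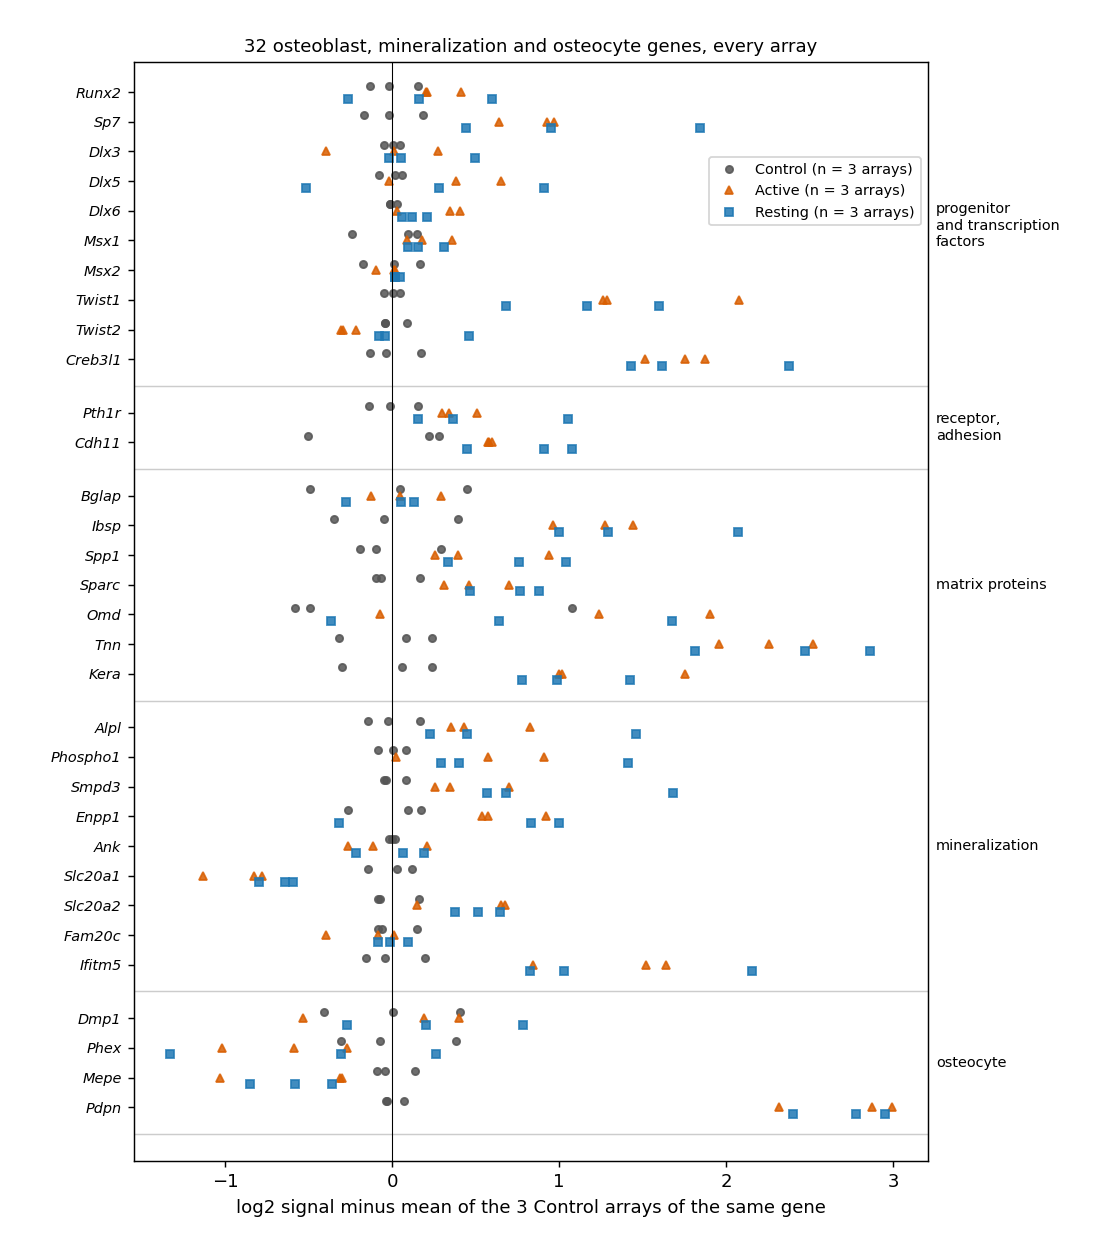
Log2 signal of each of the 32 members in each of the 9 arrays, less the mean of the 3 Control arrays of that gene (x axis), with genes grouped by role (y axis). Pdpn, Tnn, Creb3l1 and Twist1 lie to the right of Control in all 6 fracture arrays, and Slc20a1 and Mepe lie to the left in all 6.

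Among the 10 progenitor and transcription factor genes, 2 rose in Active and 3 in Resting and none fell, with median log2 differences of 0.27 and 0.18. Creb3l1 and Twist1 rose in both groups. Sp7 passed in Resting and lay just past the threshold in Active, and its Active minus Resting difference was -0.23 (limma adjusted p = 0.948). Creb3l1 (OASIS) is a membrane-bound transcription factor of the endoplasmic reticulum that drives type I collagen transcription in osteoblasts. Its log2 signal was 7.45, 7.66 and 7.35 in Control replicates 1 to 3, 9.24, 9.0 and 9.36 in Active, and 9.86, 8.92 and 9.10 in Resting. The fracture arrays all lay more than 1 log2 unit above the Control arrays. By limma the gene was 3.28-fold higher in Active (log2 difference 1.71, SE 0.21, adjusted p = 0.000211) and 3.50-fold higher in Resting (1.81, SE 0.21, adjusted p = 0.00021).

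Twist1, a basic helix-loop-helix factor that holds mesenchymal cells in an undifferentiated state and restrains Runx2, gave log2 signals of 7.19, 7.24 and 7.28 in Control, 8.50, 9.32 and 8.53 in Active, and 8.84, 7.92 and 8.41 in Resting. Control was tight and the fracture arrays were spread, with Active replicate 2 highest and Resting replicate 2 lowest among them. The rise was 2.91-fold in Active (log2 difference 1.54, SE 0.25, limma adjusted p = 0.00103) and 2.22-fold in Resting (1.15, SE 0.25, adjusted p = 0.00771). Its relative Twist2 read near the low end of the array, its mean being at percentile 13.6 of all rows. Twist2 log2 signals were 4.31, 4.45 and 4.31 in Control, 4.05, 4.14 and 4.06 in Active, and 4.32, 4.82 and 4.28 in Resting. All 3 Active arrays lay below all other arrays, but neither difference from Control passed the test (adjusted p = 0.21 and 0.666).

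Sp7, the zinc-finger factor that acts after Runx2, had log2 signals of 8.24, 8.59 and 8.39 in Control, 9.04, 9.33 and 9.37 in Active, and 10.25, 8.85 and 9.35 in Resting. Every fracture array lay above every Control array, and Resting replicate 1 stood well above its group mates. The rise was 2.11-fold in Resting (log2 difference 1.08, SE 0.28, limma adjusted p = 0.0208), and the Active difference of 0.84 (SE 0.28) missed the threshold at an adjusted p of 0.0517. The Active call was gained in 9 of 20 alternatives, among them leaving out Resting replicate 1 (adjusted p = 0.00366) or 2 (adjusted p = 0.0174). With the methods' t-test Sp7 passed in Active (adjusted p = 0.0491) and not in Resting (adjusted p = 0.22). Without Resting replicate 1 the Resting difference was 0.69 (adjusted p = 0.0228), and the call was lost without Control replicate 1 or 3 (adjusted p = 0.0723 and 0.0667).

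Runx2 itself did not pass in either comparison. Its log2 signal ranged from 7.29 to 7.57 in Control, 7.62 to 7.83 in Active and 7.15 to 8.02 in Resting, with differences from Control of 0.27 and 0.16 (SE 0.19, adjusted p = 0.36 and 0.633). The second, dimmer row of Runx2 differed by 0.04 and -0.03 and was not called either. The homeobox genes of the distal-less family, which act upstream of Runx2 and Sp7, were likewise not called. Dlx6 had log2 signals of 6.08, 6.13 and 6.08 in Control, 6.13, 6.50 and 6.44 in Active and 6.30, 6.16 and 6.21 in Resting. The spread of Active overlapped Control by replicate 1 (log2 difference 0.26, adjusted p = 0.138), and without that array the difference was 0.38 and passed (limma adjusted p = 0.0273). Dlx5 ranged from 7.44 to 8.11 in Active and from 6.94 to 8.37 in Resting, a range that enclosed its Control values of 7.38 to 7.52. The differences of Dlx3, Msx1 and Msx2 from Control lay between -0.04 and 0.21 in Active and between 0.03 and 0.19 in Resting, and none passed.

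Receptor and adhesion genes came next, Pth1r, the receptor for parathyroid hormone, and Cdh11, the cadherin of osteoblasts and other mesenchymal cells. Pth1r log2 signals were 7.69, 7.98 and 7.81 in Control, 8.13, 8.17 and 8.34 in Active, and 8.88, 7.98 and 8.19 in Resting. It passed in neither comparison (log2 differences 0.38 and 0.52, SE 0.20, adjusted p = 0.212 and 0.0979), but passed in Active without Resting replicate 1 (limma adjusted p = 0.0446) and in Resting without Resting replicate 2 (adjusted p = 0.0361). Cdh11 log2 signals were 9.59, 9.53 and 8.80 in Control, 9.91, 9.88 and 9.89 in Active, and 10.39, 9.76 and 10.22 in Resting. Control replicate 3 was low, while the Active arrays were nearly identical. Cdh11 rose 1.75-fold in Resting (0.81, SE 0.21, limma adjusted p = 0.0212) but not in Active (0.58, adjusted p = 0.0729), and the Resting value was 0.56 (adjusted p = 0.0606) without Control replicate 3. The call was also lost without Resting replicate 1 (adjusted p = 0.0667) or 3 (adjusted p = 0.0764).

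Of the 7 matrix protein genes 4 rose in Active and 5 in Resting, with median log2 differences of 1.02 and 0.71. Tnn (tenascin-N, also called tenascin-W), a matrix glycoprotein of periosteum and osteoblast precursors, changed most in this role. Its log2 signals were 7.07, 7.22 and 6.67 in Control, 9.24, 8.95 and 9.51 in Active, and 9.85, 8.80 and 9.46 in Resting. No fracture array came near the Control range. The rise was 4.74-fold in Active (log2 difference 2.25, SE 0.25, limma adjusted p = 0.0001) and 5.22-fold in Resting (2.38, SE 0.25, adjusted p = 9.9e-05).

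Ibsp (bone sialoprotein), which nucleates hydroxyapatite, had log2 signals of 10.14, 10.88 and 10.44 in Control, 11.45, 11.76 and 11.93 in Active, and 12.56, 11.48 and 11.78 in Resting. All fracture arrays exceeded all Control arrays, and Resting replicate 1 was the highest. It rose 2.34-fold in Active (log2 difference 1.23, SE 0.27, limma adjusted p = 0.00644) and 2.74-fold in Resting (1.46, SE 0.27, adjusted p = 0.00316). Kera (keratocan), a small leucine-rich proteoglycan best known from the cornea, gave log2 signals of 5.72, 6.26 and 6.08 in Control, 7.02, 7.78 and 7.04 in Active, and 6.80, 7.01 and 7.45 in Resting. The groups did not overlap with Control, and the rise was 2.39-fold in Active and 2.09-fold in Resting (SE 0.23 on the log2 scale, limma adjusted p = 0.00246 and 0.00823).

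Sparc (osteonectin), a collagen- and calcium-binding protein that fibroblasts and endothelium also make, read 11.11, 11.34 and 11.08 on the log2 scale in Control, 11.49, 11.64 and 11.88 in Active, and 12.05, 11.64 and 11.94 in Resting. Here too no fracture array overlapped Control. The increase was smaller, 1.41-fold in Active (log2 difference 0.49, SE 0.14, limma adjusted p = 0.0293) and 1.63-fold in Resting (0.70, SE 0.14, adjusted p = 0.00568). In Active the call was lost on leaving out Control replicate 1 or 3 or Active replicate 2 or 3 (adjusted p = 0.0889, 0.102, 0.0598 and 0.108).

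Spp1 (osteopontin), a phosphoprotein of bone matrix that macrophages also secrete, had log2 signals of 10.02, 10.40 and 9.92 in Control, 10.37, 10.51 and 11.05 in Active, and 10.87, 10.44 and 11.15 in Resting. Control replicate 2 lay inside the Active range, and just below all Resting arrays. Spp1 rose 1.64-fold in Resting (log2 difference 0.71, SE 0.22, limma adjusted p = 0.0456) and did not pass in Active (0.53, adjusted p = 0.115). The Resting call was lost without Control replicate 1 or 3, Active replicate 2, or Resting replicate 1 or 3 (adjusted p between 0.0554 and 0.175).

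Bglap (osteocalcin), the late osteoblast product, was not called, with log2 signals of 5.44 to 6.37 in Control, 5.80 to 6.22 in Active and 5.65 to 6.06 in Resting. Its near-identical copy Bglap3 had a brighter row whose log2 difference from Control was -0.21 in Active and -0.48 in Resting, also not called, and probes of these copies may share transcripts. Omd (osteomodulin), a proteoglycan of mineralized tissue, spread more within each group than any other member. Its Control arrays ranged from 6.28 to 7.93, Active from 6.79 to 8.76 and Resting from 6.49 to 8.53, and log2 differences of 1.02 and 0.65 (SE 0.61) did not pass.

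Of the 9 mineralization genes 2 rose and 1 fell in Active, beside 11.8% higher and 12.1% lower over all rows. In Resting 3 rose and 1 fell, beside 9.08% and 10%. The median log2 differences were 0.49 and 0.51. Ifitm5 (Bril), a membrane protein of mineralizing osteoblasts, had log2 signals of 6.48, 6.83 and 6.59 in Control, 7.47, 8.27 and 8.15 in Active, and 8.79, 7.46 and 7.66 in Resting. Every fracture array lay above Control. The increase was 2.52-fold in Active (log2 difference 1.33, SE 0.32, limma adjusted p = 0.0102) and 2.53-fold in Resting (1.34, SE 0.32, adjusted p = 0.0126).

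Smpd3, a neutral sphingomyelinase needed for normal mineralization, read 8.40, 8.53 and 8.41 on the log2 scale in Control, 8.71, 8.80 and 9.15 in Active, and 10.13, 9.02 and 9.13 in Resting. Resting replicate 1 was 1.05 log2 units above the mean of its group mates. Smpd3 rose 1.97-fold in Resting (0.98, SE 0.25, limma adjusted p = 0.0185) and did not pass in Active (0.44, adjusted p = 0.262), except without Resting replicate 1 (adjusted p = 0.0353). Without Resting replicate 1 the Resting difference was 0.63 (adjusted p = 0.0139), and without Control replicate 1 or 3 the call was lost (adjusted p = 0.0565 and 0.0629).

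The sodium-dependent phosphate transporters Slc20a1 (Pit1) and Slc20a2 (Pit2), which many cell types express, moved in opposite directions. Slc20a1 log2 signals were 8.52, 8.61 and 8.35 in Control, 7.67, 7.36 and 7.72 in Active, and 7.90, 7.70 and 7.85 in Resting. It was the only member that fell, with log2 differences of -0.91 in Active (SE 0.12, limma adjusted p = 0.00036) and -0.68 in Resting (SE 0.12, adjusted p = 0.00319), and no fracture array reached the Control range. Beside it, the log2 of the summed signal of 10 erythroid markers ranged from 14.94 to 15.26 in Control, 12.62 to 13.59 in Active and 13.74 to 14.02 in Resting, and that of 10 B lymphocyte markers from 13.63 to 13.78, 11.02 to 11.62 and 12.29 to 12.53. The mean log2 signal of the B lymphocyte markers, which counts each gene equally, ranged from 8.52 to 8.64 in Control, 6.06 to 6.66 in Active and 6.39 to 6.67 in Resting. The part of erythroid and B lymphocyte cells in the Slc20a1 values was not tested.

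For Slc20a2 the log2 signals were 8.33, 8.09 and 8.08 in Control, 8.84, 8.31 and 8.81 in Active, and 8.81, 8.68 and 8.54 in Resting. Active replicate 2 fell within the Control range. Slc20a2 rose 1.41-fold in Active and 1.42-fold in Resting (log2 differences 0.49 and 0.51, SE 0.15, limma adjusted p = 0.0385 and 0.0389). These calls were lost on leaving out Control replicate 2 or 3, Active replicate 1 or 3 or Resting replicate 2 for Active (adjusted p between 0.0542 and 0.128), and Control replicate 2 or 3 or any 1 Resting array for Resting (adjusted p between 0.0567 and 0.127).

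Genes of phosphate release and pyrophosphate control did not pass with all arrays in the fit. Alpl ranged from 7.35 to 7.66 in Control, 7.84 to 8.31 in Active and 7.72 to 8.95 in Resting (log2 differences 0.54 and 0.71, SE 0.27, adjusted p = 0.198 and 0.0974). In this row all 6 fracture arrays lay above Control, and Resting replicate 1 was highest. The second, dimmer row of Alpl overlapped Control in both comparisons, with log2 differences of -0.08 and 0.08, and was not called. The brighter row of Alpl passed in Active without Resting replicate 1 (limma adjusted p = 0.0256) and in Resting without Resting replicate 2 (adjusted p = 0.0398). Phospho1, a phosphatase of matrix vesicles, had differences of 0.50 and 0.70 (SE 0.29, adjusted p = 0.26 and 0.124). Enpp1, which generates pyrophosphate, had 0.68 and 0.50 (SE 0.29, adjusted p = 0.128 and 0.286), and without Resting replicate 2 it passed in Active (limma adjusted p = 0.00976) and in Resting (0.92, adjusted p = 0.00565). Ank, which exports pyrophosphate or its precursor ATP, and Fam20c, the secreted kinase that phosphorylates the glycoproteins of the chromosome 5 group, differed from Control by -0.06 and -0.16 in Active and by 0.01 and -0.002 in Resting.

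The 4 osteocyte genes did not move together. Pdpn (podoplanin, E11) rose, while Dmp1, Phex and Mepe did not pass. The median log2 difference of all 4 genes, Pdpn included, was -0.27 in Active and -0.11 in Resting. Pdpn is the earliest of the osteocyte proteins, made while the cell is being embedded, and lymphatic endothelium, fibroblasts and some macrophages make it as well. Its log2 signals were 6.91, 7.02 and 6.91 in Control, 9.26, 9.94 and 9.82 in Active, and 9.35, 9.73 and 9.90 in Resting. The Control arrays agreed closely and every fracture array was more than 2 log2 units higher. Means were 6.95 ± 0.06 (SD, n = 3), 9.67 ± 0.36 and 9.66 ± 0.28. The rise was 6.63-fold in Active (log2 difference 2.73, SE 0.19, limma adjusted p = 6.05e-06) and 6.55-fold in Resting (2.71, SE 0.19, adjusted p = 1.05e-05), the largest of any member in both comparisons.

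The summed signals of marker lists of other cells that make podoplanin were also higher after fracture. The log2 summed signal of 9 fibroblast and repair matrix genes ranged from 12.12 to 12.55 in Control, 13.53 to 14.02 in Active and 13.64 to 14.06 in Resting. That of 8 macrophage genes ranged from 11.81 to 12.27, 12.49 to 12.81 and 12.50 to 12.86, and 5 of them rose in Active and 6 in Resting, while Lyz2 fell by 0.27 in Active (limma adjusted p = 0.0467). That of 4 lymphatic endothelial genes ranged from 9.16 to 9.23, 9.71 to 9.81 and 9.76 to 9.81, with 3 of 4 higher in Active and 2 of 4 in Resting. The chemokine gene Ccl21a rose by 1.34 and 1.40 on the log2 scale, and Prox1, the defining lymphatic transcription factor, by 0.61 and 0.48 (limma adjusted p = 0.00165 and 0.00829) at log2 signals of only 4.09 to 4.88. Lyve1 rose by 0.38 in Active (limma adjusted p = 0.0429) and differed by 0.37 in Resting without passing (adjusted p = 0.0566). The receptor gene Flt4 had differences of -0.32 and -0.40, which did not pass (adjusted p = 0.12 and 0.0656). Their part in the Pdpn values was not tested.

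Mepe (matrix extracellular phosphoglycoprotein), an osteocyte product that restrains mineralization, had log2 signals of 8.13, 8.36 and 8.18 in Control, 7.19, 7.91 and 7.92 in Active, and 7.87, 7.37 and 7.64 in Resting. All 6 fracture arrays lay below the 3 Control arrays. The log2 differences of -0.55 and -0.60 (SE 0.20) did not pass (limma adjusted p = 0.0692 and 0.0587). The Resting difference did pass on leaving out Active replicate 1 (adjusted p = 0.0127) or Resting replicate 1 (adjusted p = 0.041).

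Dmp1 (dentin matrix protein), needed for osteocyte maturation and phosphate balance, had log2 signals of 8.81, 9.21 and 8.40 in Control, 8.27, 9.0 and 9.21 in Active, and 9.59, 8.54 and 9.01 in Resting. The groups overlapped throughout, with log2 differences from Control of 0.02 (95% interval -0.66 to 0.70) and 0.24 (-0.44 to 0.92). Phex, an endopeptidase of osteoblasts and osteocytes whose loss causes phosphate wasting, read 8.78, 9.23 and 8.55 in Control, 7.83, 8.26 and 8.58 in Active, and 9.11, 7.52 and 8.54 in Resting. Resting replicates 1 and 2 differed by more than either group differed from Control, and differences of -0.63 and -0.46 (SE 0.35) did not pass (adjusted p = 0.25 and 0.44).

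Set against the printed neighbours, then, Ibsp rose in both fracture groups, Spp1 rose in Resting, Mepe was lower in all 6 fracture arrays without passing, and Dmp1 overlapped Control. No test between these 4 genes was made.

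**Figure D2:**
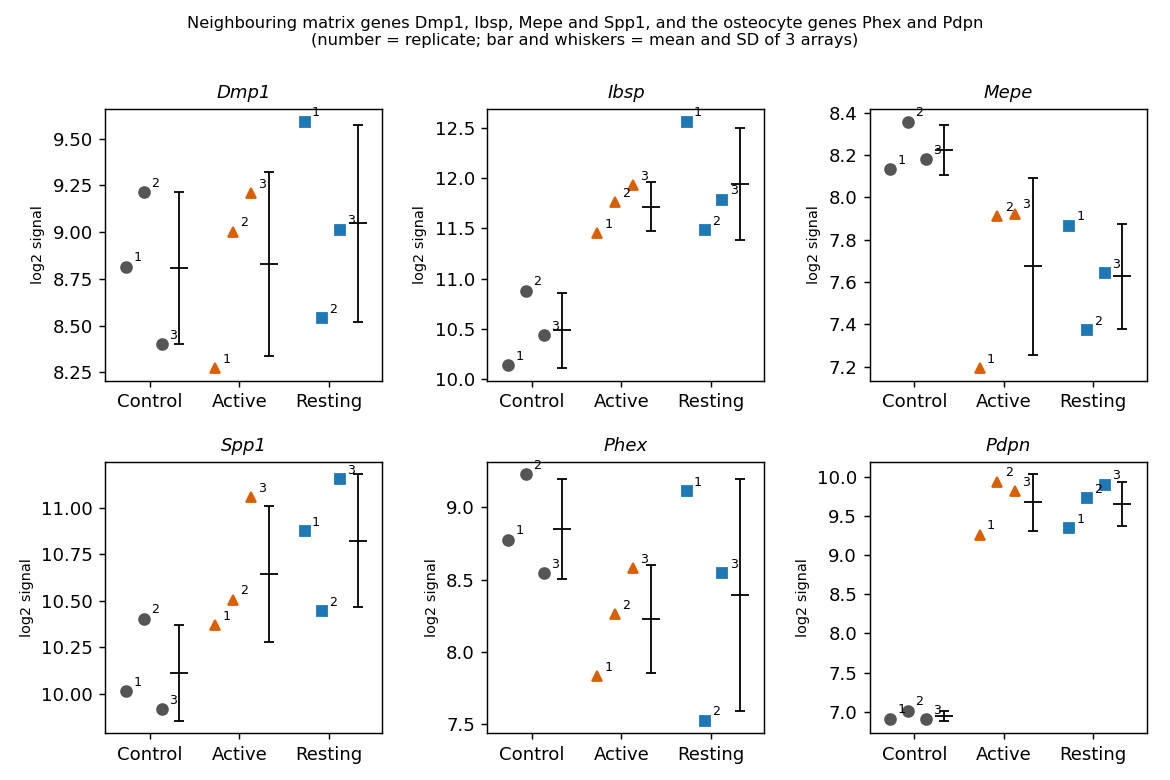
Log2 signal (y axis) of the chromosome 5 neighbours Dmp1, Ibsp, Mepe and Spp1 and of Phex and Pdpn in Control, Active and Resting arrays (x axis), with each array as a numbered point and the mean with SD of 3 arrays beside it. Ibsp and Pdpn fracture arrays lie above Control, Mepe fracture arrays below it, and Dmp1 and Phex overlap it, and each panel has its own scale.

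Further osteoblast and osteocyte genes were counted in the same way. Of 26 other osteoblast genes, 14 rose in Active and 14 in Resting and none fell (median log2 differences 0.68 and 0.56). Those with the smallest p were Cthrc1, a secreted protein of matrix-forming cells (2.79 and 2.75), Lox, the collagen crosslinking enzyme (2.90 and 3.07), Postn, periostin of the periosteum (3.13 and 3.09), and Serpinh1, the collagen chaperone (1.74 and 1.94). Each of these is also a product of fibroblasts. Of 10 other osteocyte genes, 3 rose and 2 fell in Active, and 4 rose and none fell in Resting. Mmp14, a membrane metalloproteinase of many mesenchymal cells, rose by 1.80 and 1.88, and Gja1, the gap junction protein connexin 43, by 1.11 in both. Sost, the osteocyte-restricted Wnt inhibitor sclerostin, fell by 0.76 in Active (limma adjusted p = 0.00844) and differed by -0.51 in Resting without passing (adjusted p = 0.068). The Active minus Resting difference of Sost was -0.25 (adjusted p = 0.933).

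The Active and Resting groups were then compared directly to ask whether the phase in which carprofen was given went with a difference in these genes. None of the 32 members passed in either direction, and none of all rows did (0%, 0% higher and 0% lower). By limma 1 of the 32 members had an unadjusted p under 0.05, a smaller share than the 6.11% of all rows. By the methods' t-test none of the members reached an unadjusted p under 0.05, beside 4.58% of all rows. Of the members, 11 differed upward in Active and 21 downward, with a median log2 difference of -0.12 beside -0.01 for all rows. Active and Resting arrays did not overlap for 1 of 32 members, against 9.94% of all rows, 5.16% with Active higher and 4.77% with Active lower.

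That 1 member was Twist2, with a log2 difference of -0.39 (95% interval -0.70 to -0.07, SE 0.14, limma adjusted p = 0.729, exact permutation p = 0.1). Its signal was low in every array, and without Resting replicate 2 the difference was -0.21. Twist1 had a difference of 0.39 in the opposite direction, with an interval of -0.15 to 0.94. Smpd3 had the largest difference of any member, -0.54 (-1.09 to 0.01, adjusted p = 0.823), and it was -0.19 without Resting replicate 1.

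For the genes that rose after fracture the intervals of the Active minus Resting difference were wide. They ran from -0.82 to 0.36 for Ibsp, from -0.69 to 0.42 for Tnn, from -0.57 to 0.38 for Creb3l1 and from -0.85 to 0.39 for Sp7. Pdpn differed by 0.02 (-0.39 to 0.43) and Ifitm5 by -0.002 (-0.70 to 0.70). Slc20a1 differed by -0.24 (-0.51 to 0.04). A gene that did not pass is therefore not shown to have been equal in the groups. Erythroid and neutrophil markers did separate these groups: the log2 summed signal of the 10 erythroid genes lay between 12.62 and 13.59 in Active and between 13.74 and 14.02 in Resting, and that of 10 neutrophil genes between 14.17 and 14.59 and between 14.81 and 15.03. For the 10 B lymphocyte genes the summed signal lay between 11.02 and 11.62 and between 12.29 and 12.53. Their mean log2 signal overlapped, with 6.06 to 6.66 in Active and 6.39 to 6.67 in Resting. None of those genes passed after adjustment, and their part in the members' values was not tested.

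**Figure D3:**
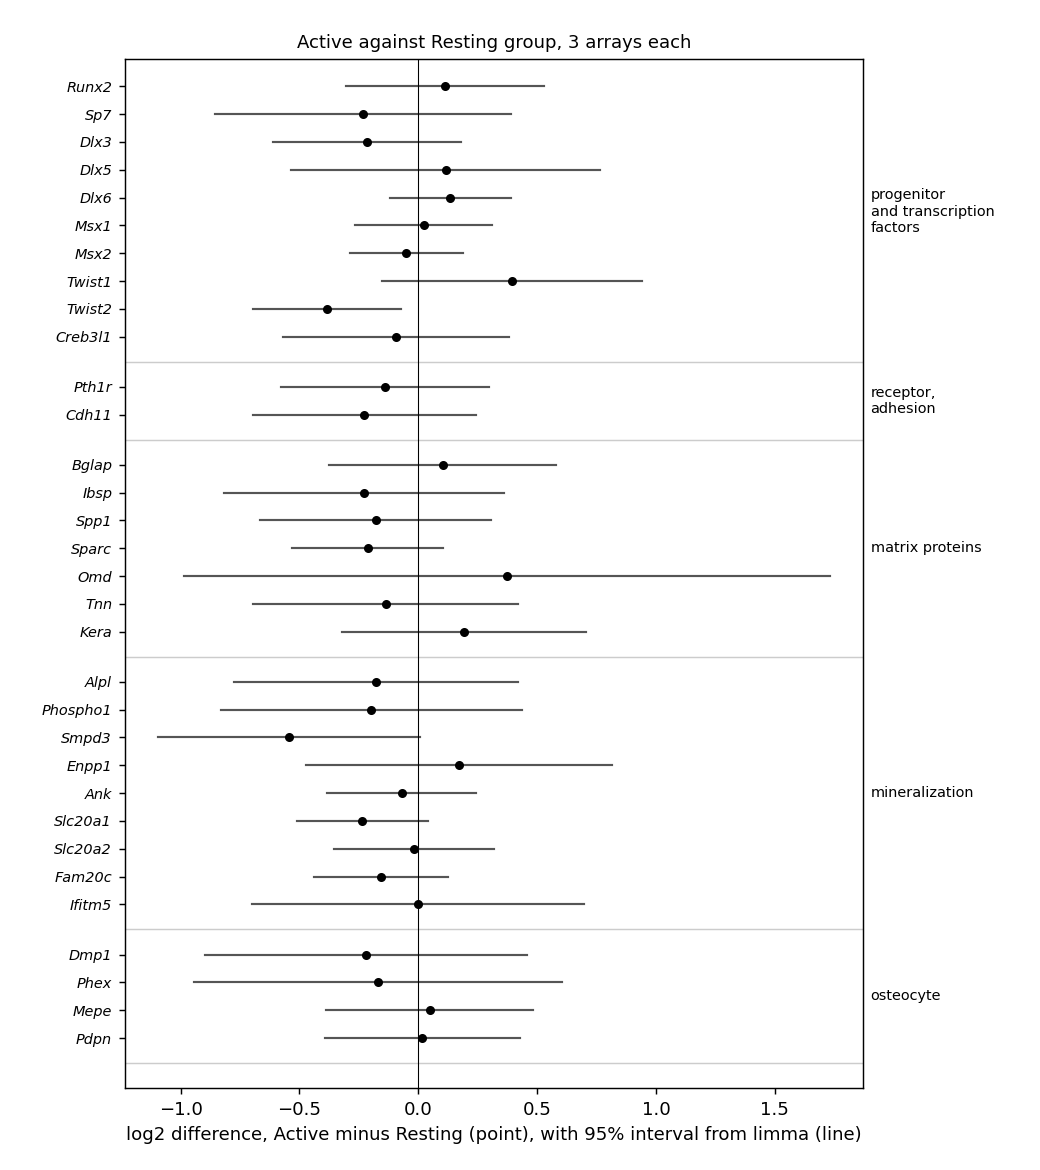
Log2 difference between the Active and Resting groups for each of the 32 members (point) with its 95% interval from limma (line), by role. Only the interval of Twist2, from -0.70 to -0.07, leaves out 0, and Omd has the widest interval.

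Within the groups the members moved from array to array together. Resting replicate 1 was the highest of its group for 24 of the 32 members and the highest of all 9 arrays for 15. Resting replicate 2 was the lowest of its group for 26. Active replicate 1 was the lowest of its group for 23 members, and Control replicate 2 was the highest of its group for 25. Over all rows, Resting replicate 1 was highest of its group in 38.8% and Resting replicate 2 lowest in 37.3%.

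The median deviation of the members from their group mean was 0.32 in Resting replicate 1 and -0.37 in Resting replicate 2, beside 0.01 and -0.01 over all rows. In Control replicate 2 it was 0.15, and in Active replicate 1 it was -0.20. Active replicate 1 also had more marrow signal than its group mates: the mean log2 signal of the 10 erythroid genes was 8.53 there against 7.40 and 7.33, and that of the 10 B lymphocyte genes was 6.66 against 6.06 and 6.24. The part of marrow cells in the low member values of that array was not tested. Resting replicate 1 exceeded the mean of its group mates by 1.54 log2 units for Omd, 1.23 for Ifitm5, 1.15 for Sp7, 1.12 for Alpl, 1.08 for Phex and 1.07 for Phospho1. The genes that ran the other way in that array were Pdpn (-0.47), Kera (-0.43), Twist2 (-0.23), Msx1 (-0.13) and Fam20c (-0.02). This spread enters the SE of each difference above, which was 0.28 for Sp7, 0.27 for Alpl and 0.35 for Phex, beside 0.12 for Slc20a1.

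**Figure D4:**
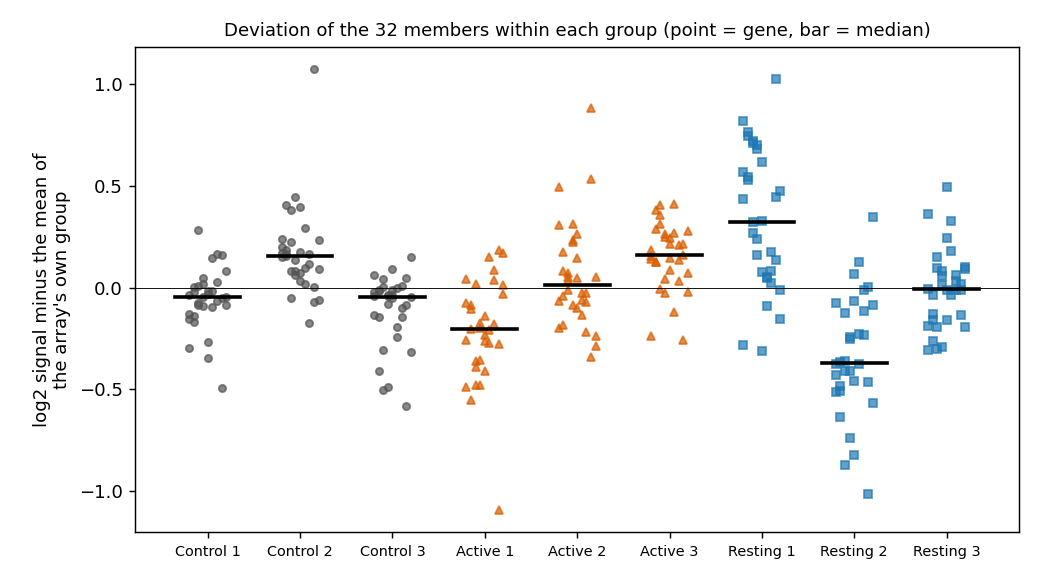
Log2 signal of each member less the mean of the array's own group (y axis) for the 9 arrays (x axis), with a point for each of the 32 genes and a bar for their median. The median is 0.32 in Resting replicate 1 and -0.37 in Resting replicate 2.

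Genes listed as markers of osteoclasts, the cells that resorb bone, were counted beside the osteoblast genes. Of 8 such genes 3 fell in Active and 2 in Resting and none rose. Acp5, tartrate-resistant acid phosphatase, fell by 1.02 and 0.83 on the log2 scale, and Mmp9 by 0.92 and 0.59. Others of the list did not follow: Ctsk differed by -0.13 and 0.11 and Ocstamp by 0.33 and 0.42, none of which passed. The log2 difference was negative for 7 of the 8 genes in Active and for 5 in Resting. The log2 summed signal of the list ranged from 12.07 to 12.33 in Control, 11.21 to 11.80 in Active and 11.49 to 11.96 in Resting. Mmp9, the brightest of the 8, weighed most in that sum. The mean log2 signal, which counts each gene equally, ranged from 7.83 to 8.22 in Control, 7.36 to 7.87 in Active and 7.44 to 7.96 in Resting. Within groups the summed signal was highest in Control replicate 2, Active replicate 3 and Resting replicate 1, arrays in which the members were also mostly high. In Resting it was lowest in replicate 2, as were most members. In Active it was lowest in replicate 2, whereas most members were lowest in replicate 1. The log2 summed signal of the 10 neutrophil genes was also lower after fracture. It ranged from 15.22 to 15.43 in Control, 14.17 to 14.59 in Active and 14.81 to 15.03 in Resting. The part of neutrophils in the Mmp9 values and in the osteoclast sum was not tested.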

How the data were processed

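Total RNA of 9 tibiae was measured on Affymetrix Mouse Gene 2.0 ST arrays, 3 each for Control, Active and Resting, and groups were taken from the sample titles. The methods assign 9 mice to the 3 groups but also speak of RNA pools. The authors deposited normalized log2 signals, and the methods name GeneSpring GX and a filter for entities present. The normalization algorithm was not given in the sources used here, nor was a genome build, and the log2 scale was read from the range of the values. No scanner files or scan dates were used here, so background and batches could not be examined. Array number limits the precision.

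The table with gene names (24367 rows) was used. All its rows were found by their 9 values in the deposited probe set table (41345 rows of log2 values), whose replicate numbers differ within Active and within Resting. The numbers of the gene-named table are used here, and groups match. Differences were tested with limma 3.58.1 in R 4.3.3 on a group-means model of all 9 arrays, two-sided, with Benjamini-Hochberg adjustment over all rows, and intervals are 95%. Intervals and SE cover the spread between these arrays. The script was tested on simulated data.

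The members and lists were chosen with earlier results of these data known. All 32 members are named. Values in every array are given for the 4 osteocyte genes, for the 4 members with the smallest p against Control in each other role, and for each member whose Active and Resting arrays did not overlap. Spp1 is given in full as a neighbour on chromosome 5. Other genes come from 12 lists (123 genes, 121 with a row), at most 4 per list, by smallest p in either comparison with Control. Lyz2, Ctsk and Ocstamp are exceptions, which were named after their values were seen. Bglap3 is in no list and was read beside Bglap as its copy. Alternatives tried were another table, the methods' t-test and threshold, fewer arrays, a filter on low values, other normalizations, an intensity trend, array weights, a replicate block, row means and leaving out each array.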

Additional observations from a re-analysis of the deposited data

How the results depend on the processing

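Creb3l1, Tnn, Pdpn and Slc20a1 passed in both comparisons with Control under each of 20 alternatives, and none of the 32 members passed between Active and Resting under any. Sign changes were seen only among members that had not passed. The count of members higher in Active, 9, was 5 with the methods' t-test and ranged from 7 to 13 on leaving out single arrays (13 without Resting replicate 1). Over all 24367 rows the count higher in Active was 2873. It was 1011 with the methods' t-test and ranged from 2099 to 2886 on leaving out single arrays (2886 without Resting replicate 1). The count of members higher in Resting, 13, was 3 with the methods' t-test and ranged from 8 to 15 (8 without Control replicate 3). Over all rows the count higher in Resting was 2213. It was 891 with the methods' t-test and ranged from 1520 to 2367 on leaving out single arrays (1520 without Control replicate 3). The count lower in Active, 1, was 2 without the 40% of rows with the lowest mean and 3 with a block on the numbers of the probe set table, an alternative chosen after seeing the data, and it stayed at 1 on leaving out each array. Over all rows the count lower in Active was 2953. It was 2941 of 14620 without those 40% of rows and 2968 with that block, and ranged from 2340 to 2891 on leaving out single arrays. The count lower in Resting, 1, was 2 with only the 6 arrays compared, without those 40% of rows, with median centring, with array weights, with the block on the probe set table's numbers and with the methods' threshold, and ranged from 1 to 2 on leaving out single arrays, the second gene being Mepe. Over all rows the count lower in Resting was 2440. In those settings, in the order given, it was 2492, 2479 of 14620, 2658, 2956, 2424 and 1712. On leaving out single arrays it ranged from 1742 to 2630. The causes were not tested.

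By the replicate numbers used here, 1 of 9 same-numbered pairs of arrays had a correlation of deviations over 0.1 (range -0.25 to 0.17). With the number as a replicate block, 8 members were higher and 1 lower in Active, and 12 higher and 1 lower in Resting. Over all rows that block gave 2712 higher and 2790 lower in Active, and 2074 higher and 2326 lower in Resting. By the numbers of the probe set table, a correlation over 0.1 was seen for 2 of 9 pairs (range -0.11 to 0.23). A block on these numbers gave 11 members higher and 3 lower in Active and 15 higher and 2 lower in Resting. Over all rows it gave 2923 higher and 2968 lower in Active, and 2269 higher and 2424 lower in Resting. Number 2 of the probe set table joins Control replicate 2, Active replicate 3 and Resting replicate 1, whose median member deviations were 0.15, 0.16 and 0.32. Number 3 joins Control replicate 3, Active replicate 1 and Resting replicate 2, with -0.04, -0.20 and -0.37. Whether arrays were handled in such sets was not tested. With 3 arrays a group, differences in weakly changed or low-signal genes such as Twist2 are limited by the number of arrays.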
